A study of Mus musculus with 9 samples.

Results

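Distal prosensory regions called after E12 are stretches of open chromatin that lay away from promoters, that had a peak in both E14.5 and both E16 lists of Sox2-EGFP+ cells of the mouse cochlear duct, and that had no peak at E12 and none in Sox2-EGFP- cells. They were chosen from the presence of peaks in 9 ATAC-seq peak lists, which were merged at a distance of 100 bp on the autosomes of mm9. A list counted as present where one of its peaks overlapped the merged region by 1 bp or more. A region counted as distal where it overlapped no window from 1000 bp before to 100 bp after the start of a protein-coding transcript. The rule kept 2909 of 68078 merged regions, or 5.4% of the 53847 distal ones. Since peak presence chose them, presence, peak height and peak rank are given below as a description, with no test.

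ATAC-seq marks open chromatin by the sites where a transposase can cut the DNA, and a peak is a place where cut fragments pile up above the local background. The cells came from Sox2-EGFP knock-in embryos (strain B6;129S-Sox2tm2Hoch/J), which the study describes as heterozygous. EGFP is made from the Sox2 locus and takes the place of Sox2 on that allele, in the Sox2-EGFP- cells too. Cochlear ducts of 1 litter were pooled for each Sox2-EGFP+ replicate, freed of mesenchyme and cochlear nerve, and sorted for the brightest cells (Sox2-EGFP+) or the darkest (Sox2-EGFP-), leaving out those with low EGFP. E12, E14.5 and E16 had 2 Sox2-EGFP+ samples apiece, with 1 Sox2-EGFP- sample at E14.5 (numbered replicate 2) and 2 at E16, and no Sox2-EGFP- list of E12 was analysed here. Sox2 is also made by glia of the spiral ganglion, which the dissection was meant to remove, and the darkest cells can hold several nonsensory types. A separate cell type tag goes against the title for 3 of the 4 E16 samples (Sox2-EGFP+ replicate 2 and both Sox2-EGFP- samples), and the titles were followed. Each list holds peaks called in 1 sample that the authors kept only where another sample of the same sort also had a peak, so the lists do not hold every peak called. An E12 peak that overlaps a later Sox2-EGFP+ peak passes that filter.

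Prosensory cells are the progenitors in the floor of the cochlear duct that give rise to the hair cells, which turn sound into nerve signals, and to the supporting cells around them. Sox2, a transcription factor of the HMG-box family, is needed to specify them. They leave the cell cycle and begin to differentiate over the days sampled here. Distal open regions can act as enhancers, where transcription factors bind short DNA motifs and influence genes over long distances.

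The lists differed widely in length, which bears directly on the rule. The E12 lists held 13817 and 7577 peaks, the E14.5 Sox2-EGFP+ lists 66332 and 22962, the E16 Sox2-EGFP+ lists 39314 and 65870, and the Sox2-EGFP- lists 23302 to 23899. Both E12 lists were shorter than every later list. Of 13 prosensory marker genes, 9 to 13 had a peak within 1 kb of a start site in every list. All 13 had one in each Sox2-EGFP- list, so promoter peaks of these genes did not separate the sorts. For macrophage genes, 0 of 10 had one in any of the 9 lists. Of 17 mesenchyme genes, 9 to 15 had one in the later Sox2-EGFP+ lists, 14 to 16 in the Sox2-EGFP- lists and 2 in each E12 list, and of 11 Schwann cell and glia genes 5 to 9, 6 to 7 and 2 to 4. Of 14 nonsensory epithelium genes, 5 to 9 had one in the later Sox2-EGFP+ lists and 4 to 5 in the Sox2-EGFP- lists. Of 15 spiral ganglion neuron genes these were 8 to 13 and 7 to 8, and of 38 hair cell genes 17 to 27 and 17 to 18. Endothelium went the other way, with 1 to 7 and 6 to 7 of 11 genes. The part of other cell types in the lists was not tested.

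The sequences of 9 regions are shown because they are the strongest region of all, by mean rank of −log10 p over the 4 later lists, the strongest that hold a given motif, or the strongest near a gene of the developing organ of Corti. Each is 300 bp of the + strand of mm9, centred on the median of the 4 peak summits. Capitals mark a match, on either strand, to one of 6 motifs. These are Sox (CCATTGT or CCTTTGT), the Gata motif with letters AGATAAG, Rfx (GTTGCCA or GTTGCTA), Nfi (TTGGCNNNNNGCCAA), Ebf (TCCCNNGGGA) and the Six2 consensus of the study's motif table, where N is any base. Positions of a match are given as bases of the window, counted from 1 at its left end. A match is a run of letters and not a measured binding site. The strongest region, in intergenic DNA 169 kb before the nearest start site, that of Lrtm1, held none of the 6.
Lrtm1 (chr14:29662149-29662448): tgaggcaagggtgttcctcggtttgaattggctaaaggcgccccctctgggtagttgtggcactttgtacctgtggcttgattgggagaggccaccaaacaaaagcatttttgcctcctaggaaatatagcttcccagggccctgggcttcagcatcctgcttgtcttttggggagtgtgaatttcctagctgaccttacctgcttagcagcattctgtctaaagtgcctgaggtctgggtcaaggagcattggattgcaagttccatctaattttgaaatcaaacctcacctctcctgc
Thsd1 names the strongest region with a Sox match, in an intron of that gene 9.67 kb after a start site, with the match at bases 256 to 262.
Thsd1 (chr8:23358489-23358788): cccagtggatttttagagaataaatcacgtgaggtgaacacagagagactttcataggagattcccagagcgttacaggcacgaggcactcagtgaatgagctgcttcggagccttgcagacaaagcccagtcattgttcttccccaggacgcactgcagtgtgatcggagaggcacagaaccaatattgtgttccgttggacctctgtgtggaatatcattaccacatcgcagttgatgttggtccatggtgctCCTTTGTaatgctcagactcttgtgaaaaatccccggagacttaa
Mctp1 names the strongest with a Gata match, in an intron of that gene 161 kb after the start site, where the Gata match took bases 25 to 31 and a Sox match bases 135 to 141.
Mctp1 (chr13:76941343-76941642): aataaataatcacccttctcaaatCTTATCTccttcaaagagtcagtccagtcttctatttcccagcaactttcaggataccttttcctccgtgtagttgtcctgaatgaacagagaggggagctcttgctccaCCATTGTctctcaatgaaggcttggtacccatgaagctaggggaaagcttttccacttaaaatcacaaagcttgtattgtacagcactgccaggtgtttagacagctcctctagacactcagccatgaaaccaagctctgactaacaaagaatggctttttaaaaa
Ptx3 is the nearest gene of the strongest region with an Rfx match, which lay in an intron of Veph1.
Ptx3 (chr3:66055726-66056025): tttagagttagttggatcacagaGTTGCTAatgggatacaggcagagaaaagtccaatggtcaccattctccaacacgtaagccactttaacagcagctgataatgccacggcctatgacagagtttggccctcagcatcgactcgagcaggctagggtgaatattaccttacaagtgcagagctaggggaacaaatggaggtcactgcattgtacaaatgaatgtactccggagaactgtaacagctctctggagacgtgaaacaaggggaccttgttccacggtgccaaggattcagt
The strongest with an Ebf match was intergenic, 4.46 kb before Gm15821, with the match at bases 12 to 21.
Gm15821 (chr17:34355717-34356016): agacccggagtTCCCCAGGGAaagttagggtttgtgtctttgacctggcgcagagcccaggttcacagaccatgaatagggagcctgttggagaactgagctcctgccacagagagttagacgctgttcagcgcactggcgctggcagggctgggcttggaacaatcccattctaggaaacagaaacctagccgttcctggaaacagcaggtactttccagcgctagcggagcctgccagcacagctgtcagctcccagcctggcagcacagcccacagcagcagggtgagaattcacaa
The Six2 consensus was found at bases 122 to 133 of a region in an intron of Ccdc85c that is nearest to a start site of Ccnk.
Ccnk (chr12:109453298-109453597): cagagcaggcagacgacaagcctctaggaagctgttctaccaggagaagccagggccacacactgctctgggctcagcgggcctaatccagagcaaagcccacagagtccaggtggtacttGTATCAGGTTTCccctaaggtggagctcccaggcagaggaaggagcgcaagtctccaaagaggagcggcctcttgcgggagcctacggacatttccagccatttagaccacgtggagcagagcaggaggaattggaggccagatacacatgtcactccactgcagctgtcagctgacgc
An Nfi match, together with an Rfx match, stood in an intron of Slc12a4, the Nfi match at bases 97 to 111.
Slc12a4 (chr8:108483372-108483671): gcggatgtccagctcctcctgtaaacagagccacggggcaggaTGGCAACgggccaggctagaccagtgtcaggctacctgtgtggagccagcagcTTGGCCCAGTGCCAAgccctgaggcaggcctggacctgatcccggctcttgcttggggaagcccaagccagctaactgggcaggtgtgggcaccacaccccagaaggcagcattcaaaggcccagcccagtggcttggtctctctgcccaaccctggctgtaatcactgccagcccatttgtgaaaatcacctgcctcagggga
Near genes of the organ of Corti, the strongest region of the supporting cell list lay in an intron of Jag1, which encodes a Notch ligand of prosensory and supporting cells. It held 2 Sox matches, at bases 153 to 159 and 213 to 219, and an Ebf match.
Jag1 (chr2:136933071-136933370): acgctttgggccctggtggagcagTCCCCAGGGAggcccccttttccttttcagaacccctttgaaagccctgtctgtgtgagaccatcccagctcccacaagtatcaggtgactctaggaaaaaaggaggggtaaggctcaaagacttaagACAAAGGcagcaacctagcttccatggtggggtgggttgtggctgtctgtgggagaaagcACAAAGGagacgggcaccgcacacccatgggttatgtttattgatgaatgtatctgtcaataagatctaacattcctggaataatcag
The strongest of the otic transcription factor list was intergenic, 84.2 kb before Mycn, a proto-oncogene of progenitor growth.
Mycn (chr12:13032814-13033113): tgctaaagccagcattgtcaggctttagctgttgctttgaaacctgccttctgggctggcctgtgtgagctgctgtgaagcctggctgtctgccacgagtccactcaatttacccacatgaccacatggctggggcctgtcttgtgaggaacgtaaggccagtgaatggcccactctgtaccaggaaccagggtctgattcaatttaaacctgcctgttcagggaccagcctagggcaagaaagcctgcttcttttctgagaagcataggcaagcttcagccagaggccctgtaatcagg
It held no match to the 6 motifs.

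Merged regions of the set were 281 to 1963 bp wide, with a median of 698 bp against 516 bp over all distal regions, and covered 2104667 bp in all. In 2619 of them (90.0%) each of the 4 lists gave exactly 1 peak. The 4 summits of a region spread over a median of 101 bp, and in 642 regions (22.1%) they fell within 50 bp of one another. The peaks of the set made up 4.45% and 12.9% of the E14.5 lists and 7.75% and 4.65% of the E16 lists. The set was spread over all 19 autosomes, where it took 4.89% to 6.08% of a chromosome's distal regions. The median distance to the next member was 172 kb, and 158 regions (5.43%) had another within 10 kb.

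Close to the borders of the rule, 7 regions lay within 100 bp of a promoter window, the nearest at 5 bp, and 302 regions with the same peaks overlapped one and were left out. The lowest −log10 q of a peak that let a region in was 1.61, in E14.5 replicate 2. A further 10503 distal regions had a peak in 3 of the 4 later lists and none at E12 or in Sox2-EGFP- cells, and in 9484 of them the missing list was E14.5 replicate 2, the shortest of the 4. Without that list, 12398 regions would have met the rule. Within 1 kb of a member but outside its merged region, an E12 peak was found for 24 members and a Sox2-EGFP- peak for 71. Of the 53847 distal regions, 0 had a peak in exactly 1 Sox2-EGFP- list, as the authors' filter implies, so a peak seen in a single Sox2-EGFP- sample could not exclude a region here.

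Peaks of the set were of middling to high height within their lists, depending on the list. Fold enrichment, which is the pileup at the summit over the local background within 1 sample, had medians of 9.84 and 3.92 at E14.5 and of 5.34 and 6.86 at E16, replicate 1 first. Over all distal peaks of the same lists the medians were 7.34, 3.98, 4.96 and 5.32. The members' medians were thus above those of all distal peaks in 3 of the 4 lists and about level in E14.5 replicate 2. The rule bears on this, since a region needed a peak in all 4 lists and its strongest peak was taken. Among the 7920 distal regions with peaks in all 4, ordered by −log10 p from the strongest, members lay beyond the middle in each list. Their median position was 68.3% and 65.8% at E14.5 and 71.2% and 67.4% at E16. The members' median fold enrichment passed the upper quartile of all distal peaks in E14.5 replicate 1 (9.66) and in E16 replicate 2 (6.64). In E14.5 replicate 2 and E16 replicate 1 it lay between the quartiles (3.47 to 4.68 and 4.17 to 6.18). Distal prosensory regions that also had a peak in both E12 lists, 491 in number, were higher in every list, with medians of 11.4, 5.00, 7.30 and 8.38. Those with a peak in 1 E12 list, 1163 in number, fell between, with 11.0, 4.37, 6.28 and 7.65. Median −log10 q of the set was 35.6, 4.82, 9.15 and 12.7. A height in a pool of cells reflects both the share of cells in which a region is open and how open it is in each, and these cannot be told apart. The plot of peak heights by list shows the 4 sets side by side.

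**Figure D1:**
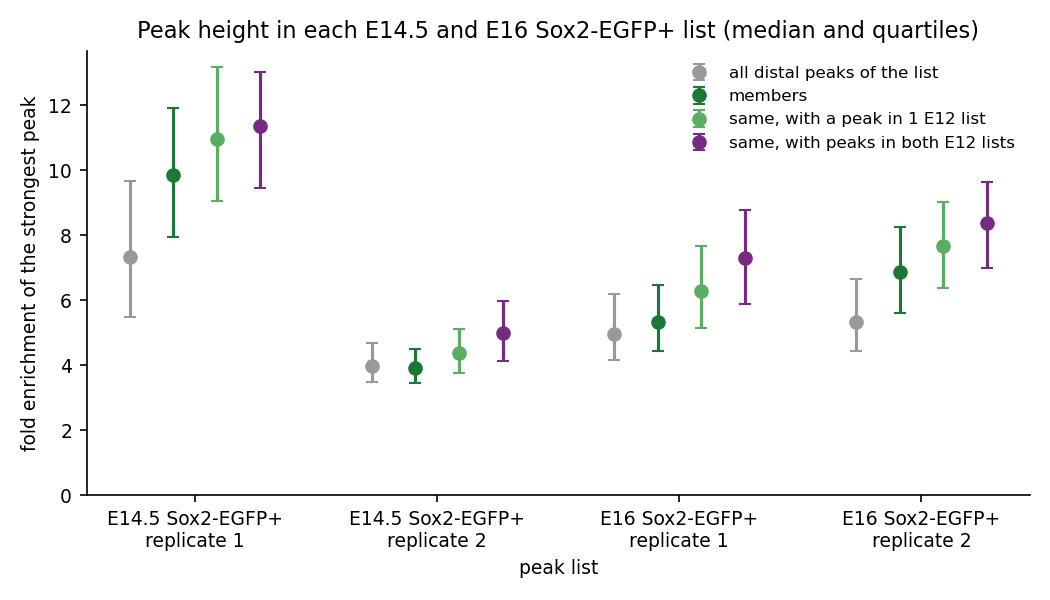
Fold enrichment (vertical axis, a ratio) of the strongest peak of a region in each of the 4 E14.5 and E16 Sox2-EGFP+ lists (horizontal axis), as the median with bars to the quartiles. The 2909 members, in dark green, sit below the regions with peaks in 1 or both E12 lists in all 4 lists, with medians from 3.92 to 9.84.

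The 10 best-ranked regions were nearest to Lrtm1, Itpkb, Slco5a1, Thsd1, Ptx3, Gna11, Smc2, Tcte2, Gm5819 and Mctp1. At Lrtm1 (chr14:29662013-29663142), fold enrichment was 12.02 and 7.50 at E14.5 and 10.9 and 9.92 at E16, and the nearest E12 peak was 287 kb away. Near Itpkb (chr1:182243723-182244492), which encodes an inositol phosphate kinase, fold enrichment was 16.6, 5.87, 10.7 and 13.5. The intronic Thsd1 region (chr8:23358309-23359012) had 17.1, 6.22, 11.1 and 12.4. All 3 were high in each of the 4 lists, which follows from their choice by mean rank. Their lowest value came from E14.5 replicate 2, the list with the lowest median over all distal peaks. The nearest E12 peak to the 10 regions lay between 6.05 kb (Gna11, which encodes a G protein subunit) and 354 kb (Gm5819).

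Regions without an E12 peak seldom ranked high in all 4 later lists at once. When peaks of each list were ranked by −log10 p, only 155 members (5.33%, 95% Wilson interval 4.57 to 6.20) had all 4 peaks ranked within the length of the longer E12 list, 13817 peaks. Over the 7920 distal regions with peaks in all 4 later lists, whether or not they had E12 or Sox2-EGFP- peaks, the share was 23.7%. It was 48.3% in regions with peaks in both E12 lists and 21.5% in those with 1. Within the length of the shorter E12 list, 7577 peaks, 7 members (0.241%) qualified. Nearly all members therefore had at least 1 later peak that ranked beyond the length of both E12 lists. Leaving out E16 replicate 1 raised the share of 5.33% to 11.1%. At least 1 of the 4 peaks ranked within 13817 in 1641 members (56.4%), beside 73.8% of the 7920 regions. The members' median rank, as percent of the list, was 28.5% and 69.2% at E14.5 and 57.8% and 30.3% at E16, replicate 1 first.

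Among the 4563 distal regions with peaks in all 4 later lists and none in Sox2-EGFP- cells, an E12 peak was common for strong regions and rare for weak ones. It was present in 95.6% (90.6 to 97.9) of the 135 regions with a mean rank of at most 5000, in 74.1% of those from 5000 to 10000, in 49.3% from 10000 to 15000, in 29.3% from 15000 to 20000, and in 7.67% beyond 30000. The 3357 regions that did have a Sox2-EGFP- peak gave 97.1%, 72.2%, 49.0%, 32.3% and 13.5%, and the intervals of both kinds overlapped in every bin. This held for ranks by −log10 p, whereas by fold enrichment the bin from 10000 to 15000 held 42.0% without and 50.8% with a Sox2-EGFP- peak. Among the 135 strongest, 6 had no E12 peak, and these are the first 6 of the regions named above (Lrtm1 to Gna11). The plot of E12 presence by rank shows both courses.

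**Figure D2:**
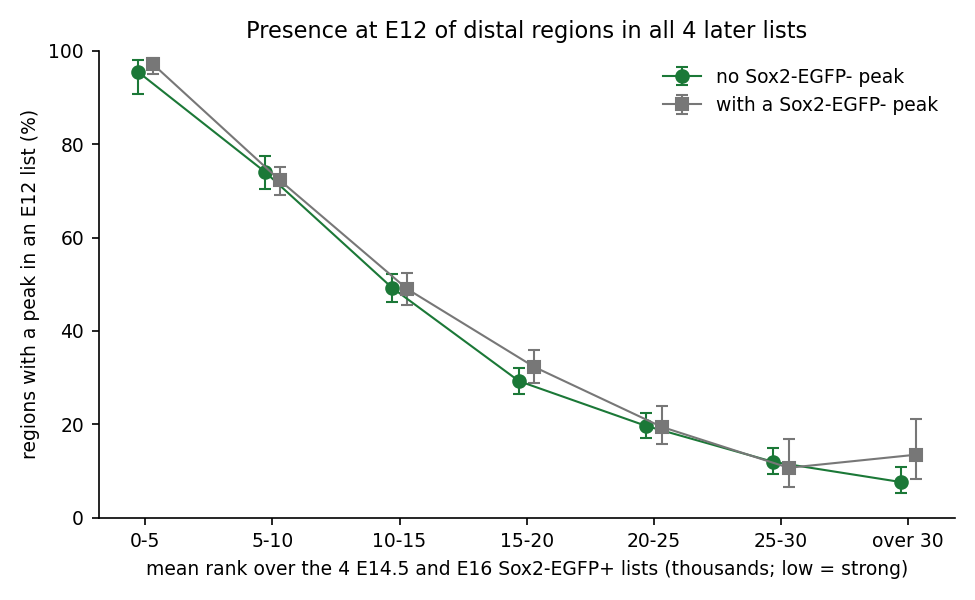
Share of distal regions with a peak in at least 1 E12 list (percent, vertical axis) against their mean rank in the 4 later Sox2-EGFP+ lists (in units of 1000, horizontal axis, strong regions to the left), with 95% Wilson intervals that cover counting error only. Regions without (green circles) and with (grey squares) a Sox2-EGFP- peak both fall from over 95% to under 15%.

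When every list was cut to the 13817 strongest peaks, the length of the longer E12 list, 807 distal prosensory regions had peaks in all 4 later lists, and 199 of them (24.7%) had no E12 peak. As deposited, the count was 2909 of 4563 (63.8%). For regions with a Sox2-EGFP- peak the same share went from 48.2% to 19.7%. Cut to 7577 peaks, 29 of 204 prosensory regions (14.2%) had no E12 peak. These cuts shortened the Sox2-EGFP- lists as well, so a region whose Sox2-EGFP- peak was cut away counted as prosensory. The 199 regions are thus not all members, of which only 155 had all 4 peaks within 13817. The lists do not give read depth, and the study's own sample table has its fewest reads in both E12 samples. In that table both E12 samples and E14.5 replicate 2 have a lower share of reads in peaks than the other Sox2-EGFP+ samples. Of the Sox2-EGFP+ samples, E14.5 replicate 2 has the most reads. The part of depth or of the share of reads in peaks in the absence at E12 was not tested. Opening after E12 and a shallower or less enriched E12 sample cannot be told apart for most of these regions.

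To compare stages among the regions themselves, each list's 7920 shared distal regions were put in order by −log10 p, and a region counted as higher at one stage where both of its positions there were ahead of both at the other. By this count 402 members (13.8%) were higher at E16, beside 16.7% of all 7920, and 509 (17.5%) were higher at E14.5, beside 17.1%. The remaining 1998 overlapped. The members' gap to all shared regions depended on the setting. By fold enrichment 20.2% of members were higher at E14.5, beside 14.8% of all, and 10.5% at E16, beside 15.3%. Without E16 replicate 2 the shares were 37.8% beside 33.2% and 26.4% beside 32.9%. Regions with peaks in both E12 lists leaned to E14.5, with 36.5% higher there and 4.89% higher at E16. Leaving out 1 sample makes the rule looser by construction, and without E16 replicate 1 the members stood at 32.6% higher at E16 and 32.3% higher at E14.5, beside 32.2% and 31.9% of all shared regions.

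Of single regions with a wide gap between stages, chosen after their values were seen, Aff3 holds one in an intron (chr1:38364783-38365531), where positions counted from the strongest, as percent of the 7920, were 84.0% and 58.1% at E14.5 and 18.2% and 3.88% at E16. Near Mapkapk2, which encodes a stress-activated kinase, they were 56.9% and 87.1% and then 10.8% and 19.1%. The opposite order was seen in an intron of Thrb (chr14:18648394-18649047), the gene of the thyroid hormone receptor beta that hearing requires, with 35.6% and 11.6% at E14.5 and 89.1% and 84.6% at E16. Near Sema5a, an axon guidance gene, they were 26.3% and 19.3% and then 91.2% and 95.8%. In each of these 4 the E14.5 and E16 positions did not overlap, which follows from how they were chosen.

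Sox matches were the most frequent of 13 motifs in the members. Sox proteins bind a short AT-rich core through their HMG box, and Sox2 itself is the gene that defined the sort. A match was present in 717 of the 2909 windows, or 24.6% (23.1 to 26.2), beside 19% of all distal windows and 10.4% of windows 5 kb to either side of the members. One match was found in 631 members, 2 in 76 and 3 in 10. The share was higher still in regions with peaks in both E12 lists, 34.6% (30.5 to 38.9), and in those with 1, 33.1%. In the 1566 distal regions with peaks in all 3 Sox2-EGFP- lists and no Sox2-EGFP+ list it was 11.2%, close to the flanks. The members therefore stood between the E12 regions and the average distal region.

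The Sox share also fell with peak rank. In members the Sox share was 32.1% (25.3 to 39.7) at mean ranks up to 10000, then 28.6%, 26.2%, 22.3% and 21.0% in the following bins. In prosensory regions with an E12 peak, it was 38.4% (34.5 to 42.5), 33.3%, 31.2%, 28.7% and 21.3%. The members were lower in each of the 5 bins, but the intervals of both sets overlapped in every one. Regions of the later lists that had a Sox2-EGFP- peak and no E12 peak held 17.6%, 14.1%, 14.3%, 11.2% and 8.60%, below the members in each bin with no overlap of the intervals.

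Matches to Sox also gathered near the summit, as the plot of match positions shows. Of 813 matches, 391 (48.1%) lay within 50 bp of the median summit, against 32.1% within 50 bp of the middle in the flanks. Ebf matches (50.5%, against 38.7% of 31 in the flanks) were also nearer to the summit. So were Tead (40.3% against 31.7%) and Rfx matches (38.8% against 31.8%). Of the 22 Six2 matches 59.1% lay within 50 bp, against 40.0% of only 10 in the flanks, too few to compare. For Ctcf, the factor that holds chromatin loops, 78 of 101 matches (77.2%) were within 50 bp. Gata (28.3%) and E-box matches (36.3%) were not nearer to the summit than in the flanks, where the shares were 35.3% and 36.2%.

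**Figure D3:**
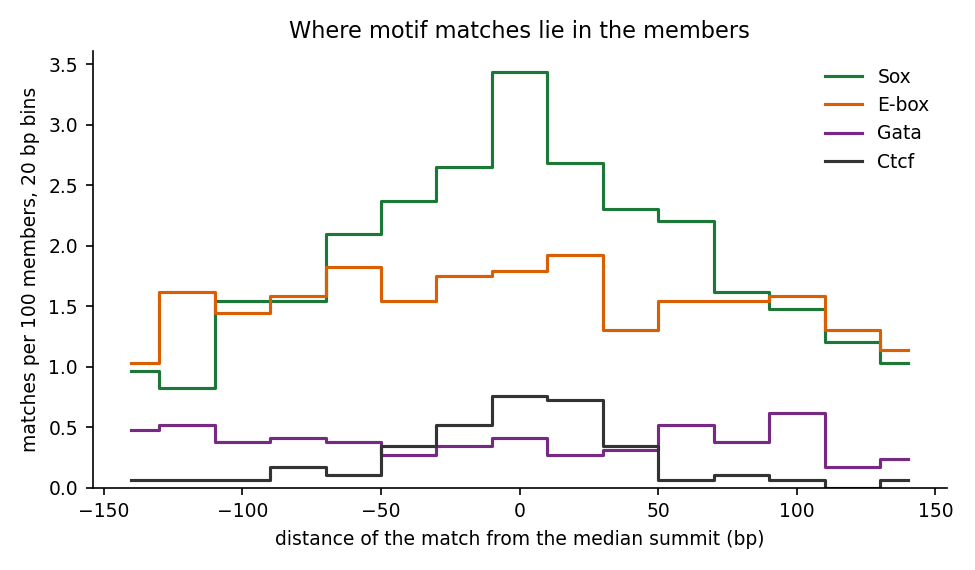
Matches per 100 members in bins of 20 bp (vertical axis) against the distance of the match from the median summit (bp, horizontal axis) for 4 motifs. Sox (green) and Ctcf (black) peak at the summit, while E-box (orange) and Gata (purple) are flat.

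Of the other 12 motifs, Rfx and Ebf had a members' interval above the share of all distal windows, Ctcf one below it, and the other 9 an interval that held it. The Gata letters, read by zinc finger factors such as Gata3, were in 5.53% of members beside 5.47% of all distal windows and 8.96% of regions with both E12 peaks. In the Sox2-EGFP- regions the Gata share was 1.66%. Rfx factors, which serve hair cell survival and cilia, had a match in 9.80% (8.77 to 10.9) beside 8.25%. Ebf factors, named for early B cells and also made in neural tissue, had one in 3.30% (2.71 to 4.01) beside 2.57%, and in only 0.553% of the flanks. The Six2 consensus was in 0.756% beside 0.904%, Nfi in 0.138% (4 members) beside 0.206%, and the Grhl letters AACCGGTT in 0.378% beside 0.269%.

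Tead factors, the DNA-binding partners of the Hippo pathway, had a match (GGAATGT or GGAATGC) in 11.6% beside 12%, and regions with both E12 peaks reached 16.3%. Lef/Tcf, the nuclear end of Wnt signalling, had one (CTTTGAT or CTTTGAA) in 11.8% beside 12.4%, and E-box letters (CAGATGG or CAGCTGG), read by basic helix-loop-helix factors such as Atoh1, in 18.6% beside 19.1%. Both were more frequent in the Sox2-EGFP- regions, at 20.1% and 29.0%. AP-1 (TGACTCA) was in 6.46% beside 6.42% and Runx (TGTGGTT) in 5.50% beside 5.88%. The Ctcf core was in 3.40% (2.80 to 4.13), below the 5.35% of all distal windows. It was in 0 of 491 regions with both E12 peaks, which allows a share of up to 0.611%, and in 0.128% of the Sox2-EGFP- regions. None of the 13 motifs was found in 949 members (32.6%). Sox and Gata letters occurred together in 45 members, where the product of both shares gives 39.7. Median GC content of the windows was 51.7%, against 50.7% for all distal windows and 44.7% for the flanks.

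**Figure D4:**
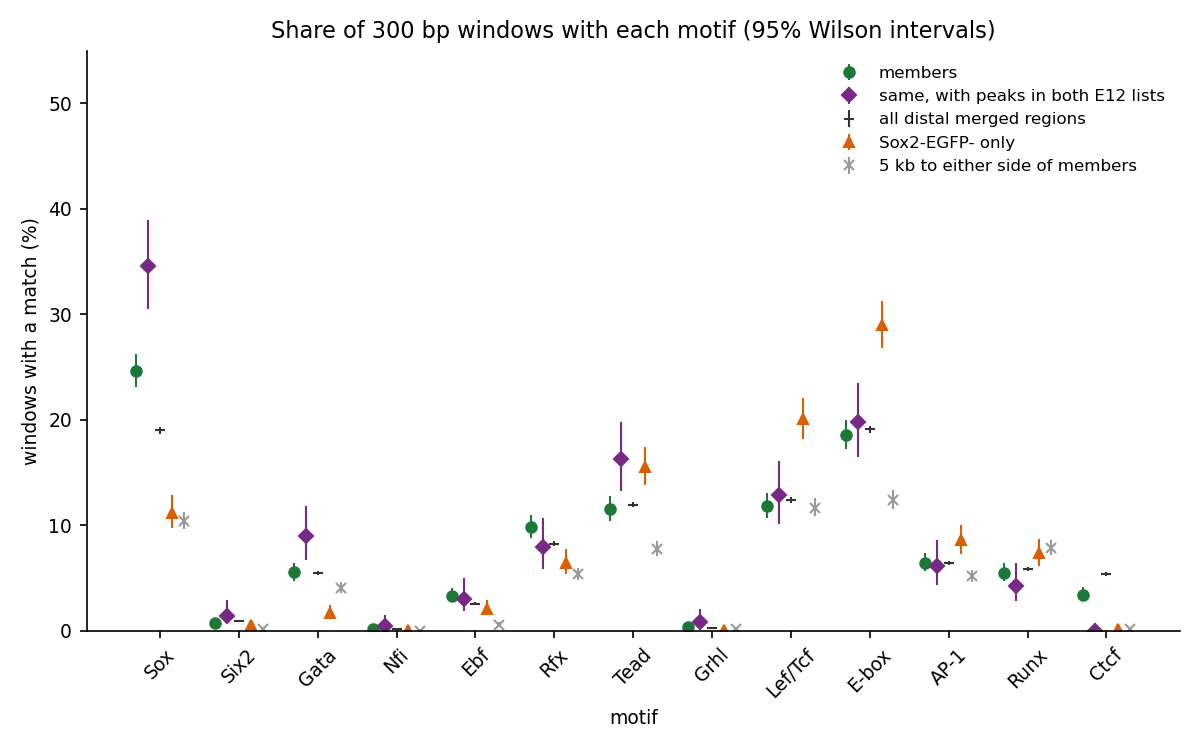
Share of 300 bp windows with a match (percent, vertical axis) for 13 motifs (horizontal axis) in the members, in prosensory regions with both E12 peaks, in all distal regions, in Sox2-EGFP- regions and 5 kb to either side, with 95% Wilson intervals that cover counting error only. Sox is the motif in which the members (24.6%) stand farthest from all distal windows (19.0%).

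Motifs differed between members of opposite stage order, though not stably. A Ctcf match was in 8.46% (6.12 to 11.6) of the 402 members higher at E16 and in 0.786% (0.306 to 2.00) of the 509 higher at E14.5. Other shared regions gave 7.94% and 2.60%, so this was not particular to the members. The order held in every setting shown, but without E16 replicate 1 the shares were 4.85% and 2.66%, and by fold enrichment 4.58% and 2.04%. For Sox they were 18.9% and 27.3%, and this gap closed to 24.2% on both sides without E14.5 replicate 1 and to 24.7% and 26.0% without E16 replicate 1. Other shared regions had a wider Sox gap, 12.8% and 28.3%, and a like one for Gata, 2.61% and 6.74%. In members Gata, with 2.99% and 6.88%, went to 5.40% and 5.24% without E14.5 replicate 1.

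**Figure D5:**
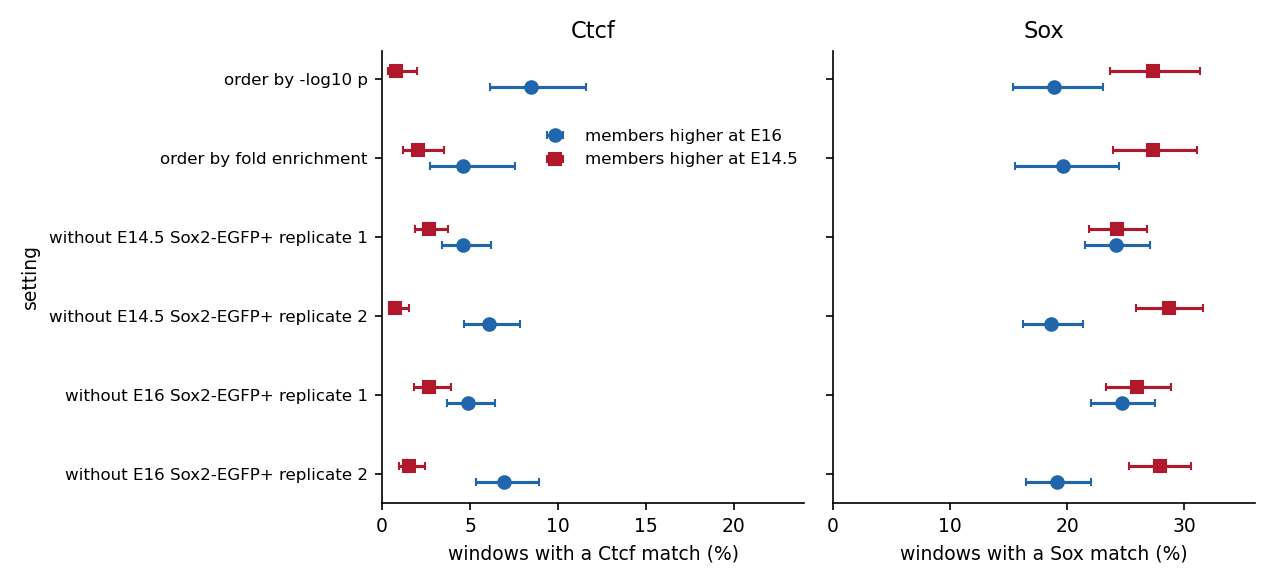
Share of windows with a Ctcf (left) or Sox (right) match (percent, horizontal axes, which differ in scale) in members higher at E16 (blue) or at E14.5 (red), for 2 ways of ordering and with each sample left out (vertical axis), with 95% Wilson intervals. Ctcf is higher at E16 in all 6 settings, while the Sox shares meet without E14.5 replicate 1.

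Because the rule chose the members by sort and stage, the motifs were tested outside them, in the 2000 strongest distal peaks of each list that overlap no member, with 1 value per sample. Sox matches were in 26.45% and 22.2% of these peaks at E14.5 and in 19.5% and 23.65% at E16 in Sox2-EGFP+ cells, and in 11.35% (E14.5), 10.65% and 11.0% (E16) in Sox2-EGFP- cells. The groups did not overlap, with means of 22.95% ± 2.90 (SD, n = 4) and 11.0% ± 0.35 (n = 3). The difference of 11.95 percentage points gave p = 0.0286 in a two-sided exact permutation test over 35 ways to choose 4 of 7 samples, the smallest p the design allows, and an adjusted p of 0.124 over 13 motifs in that exact test. E12 lists held 20.8% and 18.15%. Rfx was also higher in all 4 Sox2-EGFP+ samples (9.15% to 9.80% against 7.10% to 8.60%) and E-box lower in all 4 (16.75% to 18.7% against 20.1% to 21.75%), each with an exact permutation p of 0.0286 and an adjusted p of 0.124. After adjustment 0 of 13 motifs were under 0.05, against 3 before it. Given the smallest p of this exact test, 1 motif alone could not pass the adjustment, however wide its gap. The count of 0 therefore does not decide whether a motif differs. The test took the samples as unpaired, although the study collected some of the sorts in parallel.

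With the 1000 strongest peaks the Rfx difference of 1.73 points shrank to 0.158 (exact permutation p = 0.886), whereas Sox rose to 14.4. Without the E16 samples numbered 1, which came from another sequencing batch, the Sox difference was 12.9 points. The E12 lists against the later ones, 2 against 4, cannot go below p = 0.0667 in an exact test, so their values are given only.

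Members lay where distal regions lie in general. Place was read at the median summit, by the protein-coding transcripts of GENCODE vM1 on mm9. By this, 1304 (44.8%) were in introns, 137 (4.71%) in exons and 1468 (50.5%) intergenic, against 44.5%, 4.47% and 51.1% of all distal regions. The median distance to the nearest protein-coding start site was 31.8 kb against 31.9 kb, and 634 (21.8%) were farther than 100 kb, against 21.5%. A start site nearest to at least 1 member was that of 2337 genes, of which 1900 had exactly 1. The nearest gene is a label of position and was not measured to be the target.

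Eya1, a transcriptional coactivator and phosphatase without which the ear does not form, was nearest to more members than any other gene, 8 of the 23 distal regions assigned to it, with 2 further prosensory regions that had an E12 peak. The best ranked lay in its intron (chr1:14192012-14193172), with fold enrichments of 8.38 and 4.59 at E14.5 and 7.26 and 6.44 at E16, and held a Gata match. Another intronic one (chr1:14282090-14282921) held a Sox and a Tead match and had 8.25, 4.04, 6.64 and 5.79. Of the 8, 4 were intronic and 4 intergenic, the last as far as 194 kb before the start site. Counts of members grow with the number of distal regions a gene has. Eya1's share was 34.8%, beside 5.4% over all. Since Eya1 is singled out here for its count of members, a share above the average is partly due to that choice, and it was not tested. Nor was the share the highest, as 6720456H20Rik had 5 of 13 (38.5%).

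Another 7 genes had 5 members each. They were Thrb (of 23 distal regions), Ank3, which encodes a membrane scaffold (28), Smad7, an inhibitor of TGF-beta and BMP signals (27), Atp11b, a phospholipid flippase (18), Epha4, an ephrin receptor that guides axons (34), 6720456H20Rik (13) and Rbfox1, a splicing factor (30). At Thrb the best ranked was intronic (chr14:18642998-18643894), held Sox, Gata and Rfx matches and had fold enrichments of 11.6, 5.63, 6.03 and 9.52. Frmd4a and Zbtb20, a zinc finger repressor, had 4 each, the latter with an intronic region (chr16:43114001-43114509) that reached 19.2 in E14.5 replicate 1. At Zbtb20 the other 3 lists gave 5.59, 7.60 and 11.3, lower in each than in E14.5 replicate 1.

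The list of genes that specify the prosensory domain had a larger share of the members than of all distal regions only with Eya1 counted. Eya1 held 23 of the list's 167 distal regions but most of its members. Of 13 prosensory markers 7 had one, 15 members in all or 0.516% (0.313 to 0.849), beside 0.310% of all distal regions, and 8 of the 15 were those of Eya1. Sox2 had 1 of its 36 distal regions, intergenic 7.30 kb before the start site (chr3:34541303-34541855), with 6.80 and 3.35 at E14.5 and 4.15 and 7.01 at E16, and 4 more prosensory regions with an E12 peak. Isl1, a LIM homeodomain factor, had 2 of 8, and Gata3 0 of 25. Near Isl1, the stronger (chr13:117233376-117234107) had 13.8, 4.89, 8.33 and 6.51. Jag1's intronic region (chr2:136932741-136933760), shown above, had 5.24 and 3.68 at E14.5 and 4.44 and 6.28 at E16, and Prox1, a factor of supporting cells, had 1 of 15.

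Among genes that hair cells use, 9 of 38 annotated ones had a member, 12 members or 0.413% beside 0.405%. Pcdh15, which encodes a tip link protein, had 3 of 16 distal regions. Pou4f3, a hair cell survival factor, had 2 of 7 and no prosensory region with an E12 peak. The stronger lay 15.6 kb before its start site, with 8.57 and 3.79 at E14.5 and 5.27 and 7.47 at E16, and held an Rfx match. Tmie, a part of the transduction channel complex, had a member in an exon. Atoh1, the factor that makes hair cells, had 0 of 11. Supporting cell genes had 12 members, 0.413% beside 0.327%, among them Cd44, a hyaluronan receptor, and Slc1a3, a glutamate transporter, with 2 each.

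Otic transcription factors had 38 members at 21 of 42 genes, 1.31% (0.953 to 1.79) beside 0.982%. Sox11, an HMG-box factor related to Sox4, had 3 of 22, of which the best ranked (chr12:27938345-27939462) had 10.8, 4.75, 7.29 and 8.12. Pax2, a paired box factor of the otic placode, had 3 of 16, all weak, with fold enrichments between 3.02 and 7.11. In the list of Nfi, Ebf, Rfx, Tead and Grhl genes, Nfib and Ebf3 had 3 each, and the list's share was 0.309% beside 0.353%.

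Signalling lists ranged from somewhat below the background (Notch) to somewhat above it. The Fgf list had 16 members, 0.550% (0.339 to 0.892) beside 0.319%. In that list Etv5, a target of Fgf signals, had 4 of 14, and Fgfrl1, a receptor without a kinase domain, had 3 of only 5. The strongest near Fgfrl1 (chr5:109142968-109143527) had 10.6 and 3.91 at E14.5 and 7.41 and 8.00 at E16 and held a Sox match. The Bmp and activin list had 26 members, 0.894% (0.611 to 1.31) beside 0.585%, with 5 at Smad7 and 2 each at Id2, Bmp2 and Smad6. Near Id2, an inhibitor of basic helix-loop-helix factors, the stronger (chr12:25935421-25936640) had 13.5, 4.51, 8.06 and 8.56 and held a Sox match. Notch genes had 7 members, 0.241% beside 0.325%, 2 of them at Maml2, a Notch coactivator, and 1 each at Notch3, Jag1 and Hes1. Wnt genes had 22 (0.756% beside 0.669%), with 3 at Tcf7l2 and 2 at Rspo2, and Hedgehog genes 7 (0.241% beside 0.195%), 3 of them at Boc, a coreceptor.

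Genes of the tectorial membrane and matrix had 8 members, 0.275% (0.139 to 0.542) beside 0.134%. Otol1, a collagen-like protein of inner ear matrices, had 3 of 11 distal regions, all upstream of its start site, the strongest (chr3:69805442-69806175) with 11.6, 5.77, 7.95 and 8.09. Otoa, which attaches the tectorial membrane, had 1 in an exon, and Tecta, its main glycoprotein, 1 that lay 1.75 kb before the start site. Axon guidance genes had 23 (0.791% beside 0.773%), with 5 at Epha4 and 2 at Slit3, a repellent. The Slit3 intron held one (chr11:34964599-34965633) with 13.1, 5.67, 8.37 and 8.64. Synaptic adhesion genes had 14 (0.481% beside 0.574%), 3 of them at Cadm1, planar cell polarity genes 6 (0.206% beside 0.201%) and cell cycle exit genes 6 (0.206% beside 0.197%).

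Genes of other cell types were also near members at about their background. Otic mesenchyme had 7 (0.241% beside 0.225%), with 3 at Foxc1 and 2 at Foxc2, spiral ganglion neurons 5 (0.172% beside 0.147%), nonsensory epithelium 6 (0.206% beside 0.165%), Schwann cell and glia 3 (0.103% beside 0.100%), and endothelium and melanocytes 2 each (0.0688% beside 0.117% and 0.104%). Of the glial genes, Sox10 and Egr2 had 1 each. Macrophage genes had 0 of 2909, which by the limit of 3 counts allows a share of up to 0.103%, beside 0.0167% of all distal regions. Of the otic elements that the study had curated from published work, 31 overlapped a distal region and 2 a member. One of these members lay 28.5 kb before Fam84b (chr15:60684827-60685512), with 13.4, 5.56, 8.29 and 8.33 and an Rfx match. The other was 14.47 kb after Nes (chr3:87789266-87789768), with 5.27, 2.87, 3.53 and 4.24 and with Sox and Tead matches. Of the 22 lists, 4 had a members' interval that lay wholly above the share of all distal regions. They were the prosensory, Fgf, Bmp and activin and tectorial membrane lists, and in the first 3 of these 1 gene (Eya1, Etv5 or Smad7) gave 4 to 8 of the members, which are then not independent. With every start site within 100 kb counted, all 4 intervals held the background (prosensory 0.344% beside 0.199%, Fgf 0.584% beside 0.392%, Bmp and activin 0.756% beside 0.589%, tectorial membrane 0.413% beside 0.245%). The otic transcription factors, at 1.27% (0.924 to 1.75) beside 0.791%, were then the one list wholly above it.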

How the data were processed

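Per the labels and methods, reads had been cleaned of adapters (Trim Galore), mapped on mm9 (Bowtie2) and stripped of duplicates and mitochondrial DNA (Picard, SAMtools) by the authors, whose MACS2 peaks are those of single samples (no model, shifted and extended reads). They kept peaks replicated in another sample of the same sort with BEDOPS and removed blacklisted regions. The deposited fold enrichment is a ratio of pileup to local background within a sample. The deposited −log10 p and −log10 q values and the integer score are those of MACS2, and the score was not used. Replicates were not pooled. The lists hold no read counts, so depth is unknown from the files (read totals that the study tabulates entered no value here), and the length of a list stands beside each result it touches.

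Peaks were merged as in the study (bedtools merge at 100 bp, done here in Python 3.11.15 with NumPy 2.4.6 and checked against bedtools on simulated data). Regions were assigned to the nearest of 46013 protein-coding start sites of GENCODE vM1. Motifs were counted on both strands in 300 bp windows at the median summit, read from mm9 with pysam 0.24.0. Intervals are 95% Wilson intervals (SciPy 1.17.1) and cover counting error only; a share of 0 is given the limit of 3 counts. The one test, over samples and outside the members, was a two-sided exact permutation test with Benjamini-Hochberg adjustment over 13 motifs, tested on simulated data. Figures were drawn with matplotlib 3.10.9.

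The members, gene lists and motifs were chosen with earlier results of these data known. Named regions were the 10 of best mean rank, those of the 10 genes nearest to most members, up to 4 genes of most members in each of 22 lists (ties by best mean rank), those on a curated otic element and those at Atoh1, Sox2, Isl1, Gata3, Eya1 and Pou4f3. Sequences were those of the best-ranked member outside chromosome 18 of all, with each of 6 motifs and near 2 gene lists. A few genes that these rules name are not reported here. Gfi1 and Spi1 had no entry in the annotation. Samples were grouped by title. Alternatives changed the merging, overlap, peak threshold, promoter window, ranking, window, gene assignment, replicate block and samples.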

Additional observations from a re-analysis of the deposited data

Results flagged for a closer look

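The Ctcf share of the strongest 2000 distal peaks outside the members moved in opposite directions at the 2 stages. At E14.5 it was 3.15% and 3.10% in the Sox2-EGFP+ samples and 4.75% in the 1 Sox2-EGFP- sample, a difference of -1.625 points. At E16 it was 5.20% and 5.45% against 4.75% and 4.25%, a difference of 0.825 points. Every sample kept the direction of its stage, with 1 Sox2-EGFP- sample at E14.5, and the difference between the stages was not tested. The E12 samples held 2.15% and 1.70%.

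Outside the autosomes, which the rule asks for, 22 of 782 distal regions of the X chromosome (2.81%) met the same pattern of peaks, against 5.4% of the autosomal ones. The Y chromosome had 0 distal regions.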

How the results depend on the processing

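Across the alternatives, 128 values counted as unchanged by the rule for their kind, and 49 moved. Counts had to stay within a set factor, and shares within the interval of the main value. Motif differences outside the members only had to keep their sign and their side of the adjusted threshold. The Rfx difference with the 1000 strongest peaks, 0.158 points, therefore counts as unchanged, and the tally does not measure how stable a size is. With a sample left out, the stage lean of the members and their Gata shares by stage turned, as given in the text above. So did the small gap in E12 share at ranks 10000 to 15000. It was 49.3% without and 49.0% with a Sox2-EGFP- peak, and 41.9% and 47.4% without E16 Sox2-EGFP+ replicate 1. The number of regions that met the rule, 2909 in the main setting, was 2810 to 2931 with other merging distances, promoter windows or chromosomes. It was 1379 where peaks had to cover the greater part of the region, 1770 and 1213 with a −log10 q of at least 5 in every list or in the 4 later ones, 29 with lists cut to 7577 peaks and 199 with lists cut to 13817. Leaving out 1 sample gave 2909 to 12398, the last without E14.5 Sox2-EGFP+ replicate 2. The share ranked within the longer E12 list was 9.28% by fold enrichment, 0.241% for the shorter list and 6.22% to 11.1% with a sample left out.

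In 200 bp windows, which are shorter by construction, the members' shares, each beside that of all distal windows of 200 bp, were Sox 20.01% (14.7%), Gata 3.54% (3.75%), Ebf 2.41% (1.88%), Rfx 6.74% (5.95%), Tead 8.87% (8.88%), Lef/Tcf 7.49% (8.11%), E-box 13.3% (13.9%), AP-1 4.40% (4.45%) and Runx 3.47% (3.89%). Sox was 22.5% at the middle of the region (18.4% of all distal), and Sox was 27.2% and AP-1 5.11% in members with a −log10 q of at least 5. With any start site within 100 kb, axon guidance and planar cell polarity genes both had 0.481% (beside 0.401% and 0.325% of all distal regions) and Schwann cell and glia genes 0.309% (0.202%).

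Alternatives chosen after seeing the data were the order by stage and the E12 share by rank. By fold enrichment 10.5% of members were higher at E16 and 20.2% at E14.5, beside 15.3% and 14.8% of all shared regions. With a sample left out they were 26.4% to 32.6% and 32.3% to 40.0%, beside 32.2% to 35.1% and 31.9% to 36.3%. The E12 share at ranks 10000 to 15000 without a Sox2-EGFP- peak was 42.0% by fold enrichment and 41.9% to 51.2% with a sample left out. With a Sox2-EGFP- peak it was 50.8% and 47.4% to 50.1%, and the lowest value of both kinds was that without E16 replicate 1.

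Sample numbers were not taken to pair the sorts in the main test. Correlations of like-numbered samples over 13 motifs were 0.361, 0.483 and -0.332, which cannot show whether they shared a litter. The study collected some of the sorts in parallel, E16 cells among them, and which samples shared litters is not given in the sources used here. A pairing would not be respected by the main test. The replicate block of 3 pairs gave a Sox difference of 10.8, with an exact p of 0.25, the smallest it allows, and 0 motifs passing. With any 1 sample left out it was 10.8 to 13.1, in designs that cannot reach 0.05. Depth limits were not measurable from the lists.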

Other observations

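Values that belong to no comparison above describe the 99 members with a Ctcf match. They were 503 bp wide at the median, against 698 bp over all members, lay a median of 23.0 kb from a start site against 31.8 kb, and 34.3% of them were higher at E16 and 4.04% at E14.5. Their median fold enrichments were 9.56, 3.87, 5.87 and 7.06 in the 4 lists, against 9.84, 3.92, 5.34 and 6.86. The 717 members with a Sox match had 10.3, 4.00, 5.41 and 7.06, with 10.6% higher at E16 and 19.4% at E14.5.

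CpG pairs averaged 5.55 in the windows of members, 4.97 in those of regions with both E12 peaks, 5.87 over all distal windows and 2.98 in the flanks.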
